A study of Mus musculus with 18 samples.

Results

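The genes described here are 40 interferon-stimulated genes, chosen by name from a list and read from the probe sets annotated to them on Affymetrix arrays of mouse embryonic fibroblasts (MEFs). The list was chosen with earlier results of these data known, so no count over it is independent support. A probe set is a group of short probes for 1 transcript. Of the 40 genes, 38 had a probe set annotated to them alone, out of 12394 genes measured in this way. The only probe set of Isg15 was shared with Gm9706 and is given separately, and Ifi44 was not analysed here. The 38 measured members comprised 25 of 27 type I interferon targets, all 6 GTPases known for their induction by interferon-gamma, and all 7 signal transducers and sensors.

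RNA came from fibroblasts immortalised with SV40 that lacked Tdg (Tdg-/-, clone 9, 3 arrays, MEF_KO) or kept 1 working copy of it (Tdg+/-, clone 4, 3 arrays, MEF_het), both grown in DMEM with fetal calf serum and with no interferon treatment named in the labels. Tdg encodes thymine DNA glycosylase, a DNA repair enzyme that also acts on oxidised forms of methylcytosine. Each genotype is thus 1 clone, so that genotype and clone cannot be told apart, and SV40 is shared by both. No label names separate cultures behind the 3 arrays of a genotype; the p-values rest on array-to-array spread alone, and that spread may be technical. In such bulk RNA, fewer cells of a type and less RNA per cell cannot be told apart. ES cells and neuronal precursors of the same series were not analysed here.

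Interferons are secreted proteins through which cells warn each other of infection. Type I interferons bind the receptor of Ifnar1 and Ifnar2, whose kinases Jak1 and Tyk2 activate STAT proteins; a complex that holds Stat2 and Irf9 binds the interferon-stimulated response element (ISRE) in the promoters of target genes. Interferon-gamma uses the receptor of Ifngr1 and Ifngr2 and acts largely through the gamma-activated site (GAS). Many cells, fibroblasts among them, hold a low level of these targets without any added interferon, and the genes of the transducers are themselves interferon targets.

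The members were chosen by name and not by sequence, so their promoters are shown first, as the place where the factors of this pathway act. RefSeq promoters of build GRCm38.p6, from 250 bases before to 50 after each gene's start, matched 32 of the 40 members. The ISRE core was searched as TTTC and TTTC with any 2 bases between them, on both strands, overlapping matches included. It was found in the promoters of 16 of these 32 members (50%), against 1079 of 27025 genes with a promoter in the table (3.99%). The GAS motif TTCNNNGAA, whose letters read the same on both strands, was found for 10 of 32 members (31.2%), against 2582 of 27025 genes (9.55%). A match is only a run of letters, and a window without one says nothing about binding. Among the members that passed the test below, 7 had a promoter in the table and 4 of them held an ISRE core; these 4 promoters are printed 5′ to 3′ with the ISRE cores in capitals.
Bst2 (chr8:71537423-71537722, minus strand): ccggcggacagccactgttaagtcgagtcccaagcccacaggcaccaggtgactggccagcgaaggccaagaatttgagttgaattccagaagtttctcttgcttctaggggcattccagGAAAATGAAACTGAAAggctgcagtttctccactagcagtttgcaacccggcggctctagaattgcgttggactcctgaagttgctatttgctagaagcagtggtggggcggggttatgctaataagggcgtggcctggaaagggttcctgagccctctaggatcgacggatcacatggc
Ifitm3 (chr7:141010695-141010994, minus strand): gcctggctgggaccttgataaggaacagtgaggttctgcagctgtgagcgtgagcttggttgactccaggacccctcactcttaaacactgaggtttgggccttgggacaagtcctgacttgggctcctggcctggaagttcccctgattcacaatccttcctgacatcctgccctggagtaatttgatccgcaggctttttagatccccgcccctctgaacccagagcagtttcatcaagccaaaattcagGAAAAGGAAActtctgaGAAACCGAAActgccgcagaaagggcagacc
Ifit1 (chr19:34640639-34640938, plus strand): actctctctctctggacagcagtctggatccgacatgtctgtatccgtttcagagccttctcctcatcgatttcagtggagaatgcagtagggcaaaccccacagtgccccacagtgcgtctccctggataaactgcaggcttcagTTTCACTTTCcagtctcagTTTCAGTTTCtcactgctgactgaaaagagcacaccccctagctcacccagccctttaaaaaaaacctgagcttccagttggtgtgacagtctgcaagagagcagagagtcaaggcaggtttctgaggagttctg
Ifit3 (chr19:34583279-34583578, plus strand): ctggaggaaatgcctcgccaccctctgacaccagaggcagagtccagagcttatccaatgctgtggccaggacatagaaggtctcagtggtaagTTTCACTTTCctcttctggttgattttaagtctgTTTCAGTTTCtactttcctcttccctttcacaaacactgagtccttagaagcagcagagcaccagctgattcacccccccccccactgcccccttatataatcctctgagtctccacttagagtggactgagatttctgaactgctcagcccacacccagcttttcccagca
Each of the 4 held 2 matches. In Bst2 they overlapped and spanned bases -130 to -115 from the start, in Ifit1 they lay between -104 and -76 and in Ifit3 between -156 and -113, while those of Ifitm3 lay after the start, between bases 3 and 29. Of the 19 members with a promoter among the 22 that passed in either direction without MEF_het replicate 1, 11 held the core (57.9%), and of the 11 among the 16 that passed in neither fit, 4 did (36.4%).

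**Figure D1:**
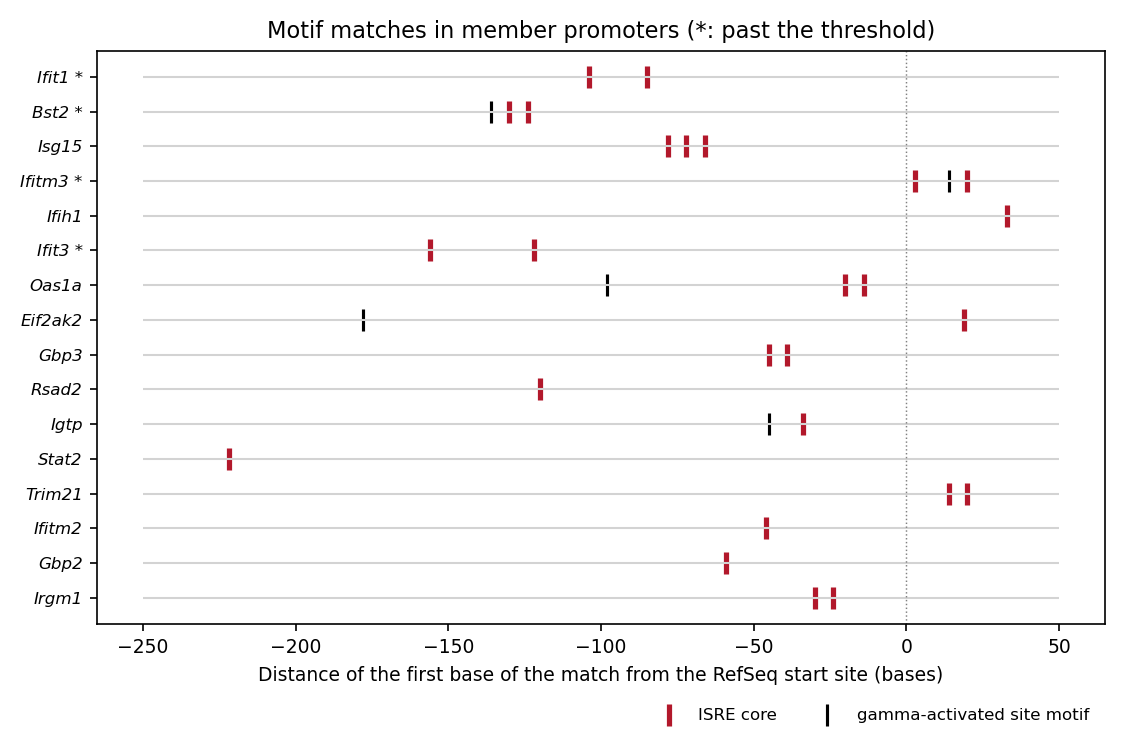
Positions of ISRE core and GAS motif matches (first base of each match, in bases from the RefSeq start site, x axis) in the promoters of the 16 members with an ISRE core, ordered from the lowest log2 fold change at the top, with Isg15 placed by the probe set it shares with Gm9706. Bst2, Ifit1, Ifit3 and Ifitm3, starred, passed the test.

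Values are the authors' deposited log2 expression values, with array medians between 7.38 and 7.42. All 3 probe sets annotated to Tdg, each shared with Tdg pseudogenes, were lower in the Tdg-/- arrays, by 3.46-fold to 6.30-fold (limma, adjusted p up to 0.00543); without MEF_KO replicate 3 the highest of the 3 adjusted p-values was 0.0524. The sources used here do not place the deletion within Tdg, and a probe set outside the deleted part checks nothing. One Tdg+/- array stood apart: MEF_het replicate 1 correlated with the other 5 arrays at 0.936 to 0.962, against 0.982 to 0.998 among those 5, and its values had an SD over probe sets of 1.70, against 1.81 to 1.90. The counts below, and the values of members that fell, are therefore also given without it. The 10 fibroblast markers were measured at mean levels of 6.86 to 13.36, with Vim, Fn1 and Col1a1 near the top of the scale in both genotypes. The linear levels of 8 measured leukocyte markers summed to 791 to 850 units in Tdg-/- arrays and 819 to 1006 units in Tdg+/- arrays; none of the 8 passed the test (limma), also at an unadjusted p under 0.05 or without MEF_het replicate 1. Ptprc, the pan-leukocyte marker, averaged 4.74 ± 0.09 in Tdg-/- and 4.69 ± 0.26 in Tdg+/- arrays (log2, SD, n = 3 each), both below 6.29, the median of 33 olfactory receptor probe sets, which stand here for genes that fibroblasts do not use. Of the 8 leukocyte markers, 5 lay under 7.25, the 95th percentile of these probe sets, in both genotypes. Csf1r (7.75 in Tdg-/-, 7.79 in Tdg+/-) and Cd3e (7.72 and 7.87) lay above it in both. The mean of Lyz2 (7.09 and 7.36) lay above it only in Tdg+/- arrays, and there through MEF_het replicate 1 alone. That array read 7.77, against 7.19 and 7.11 in MEF_het replicates 2 and 3, and the Tdg+/- mean without it was 7.15. Of 5 endothelial markers Kdr fell, 1.50-fold, though it passed in only 1 of the 6 fits with an array left out (adjusted p up to 0.198), and Tek was lower at an unadjusted p under 0.05. Of 5 epithelial markers none passed, also at an unadjusted p under 0.05. Without MEF_het replicate 1, Kdr (-0.67) and Emcn (-0.27; adjusted p = 0.0489) fell, and the epithelial marker Cdh1 rose (0.42; adjusted p = 0.00813). In that fit 7.87% of all genes fell and 14.1% rose. The sums of the endothelial markers were 523 to 541 units in Tdg-/- and 732 to 791 units in Tdg+/- arrays, and those of the epithelial markers 435 to 465 units in Tdg-/- and 437 to 503 units in Tdg+/- arrays. Of the 10 fibroblast markers 5 fell (Col1a2, Col3a1, Pdgfra, Thy1 and Dcn) and none rose (1.32% and 2.52% of all genes did). At an unadjusted p under 0.05 S100a4 was also lower (7.32% of all genes were) and Pdgfrb higher (15.1% of all genes were). Without MEF_het replicate 1, 6 fell, S100a4 being the sixth (-0.48; adjusted p = 0.00137), and Pdgfrb rose (0.86; adjusted p = 9.95e-05). Col3a1, Pdgfra and Thy1 passed whichever array was left out, while Col1a2 and Dcn passed in 2 of the 6 such fits. The sums of the fibroblast markers were 37667 to 40058 units in Tdg-/- and 44290 to 45536 units in Tdg+/- arrays. The part of these markers in the interferon result was not tested.

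Most interferon-stimulated genes had lower values in the Tdg-/- fibroblasts. Of the 38 measured members, 8 fell, none rose and 30 did not pass (adjusted p under 0.05, limma over all 12394 genes), which is 21.1% of the members, against 1.32% of all genes that fell and 2.52% that rose. Ifit1, Usp18 and Lgals3bp fell most, by 3.57-fold, 3.51-fold and 3.47-fold. At an unadjusted p under 0.05 the counts were 17 lower (7.32% of all genes were) and 1 higher (Samhd1; 15.1% of all genes were). The median log2 fold change of the members was -0.30, against -0.02 over all genes, and 31 of 38 members had a log2 fold change below 0, as did 52.1% of all genes. The median over all genes differed with level. Below the median level of 7.70 it was -0.15 over all genes and -0.27 over the 26 members there. Above that level it was 0.14 over all genes and -0.47 over 12 members. The genotypes were apart with the Tdg-/- arrays lower for 23 members (60.5%), against 16.8% of all genes, and apart with the Tdg-/- arrays higher for Ifit2, Samhd1 and Irgm1, against 22.6% of all genes. Without MEF_het replicate 1, 21 members fell (55.3%, against 7.87% of all genes) and Irf1 rose (14.1% of all genes rose), and the median was -0.35. The genotypes were then apart with the Tdg-/- arrays lower for 28 members (73.7%, against 24.2% of all genes) and higher for 5 (against 26% of all genes). Leaving out any other single array lowered the number of calls. It was 7 without MEF_het replicate 3 (0.904% of all genes fell), 4 without MEF_het replicate 2 (0.484%) or MEF_KO replicate 1 (0.428%), and 3 without MEF_KO replicate 2 (0.428%) or 3 (0.355%). These 3 were Bst2, Usp18 and Lgals3bp, which passed whichever array was left out.

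**Figure D2:**
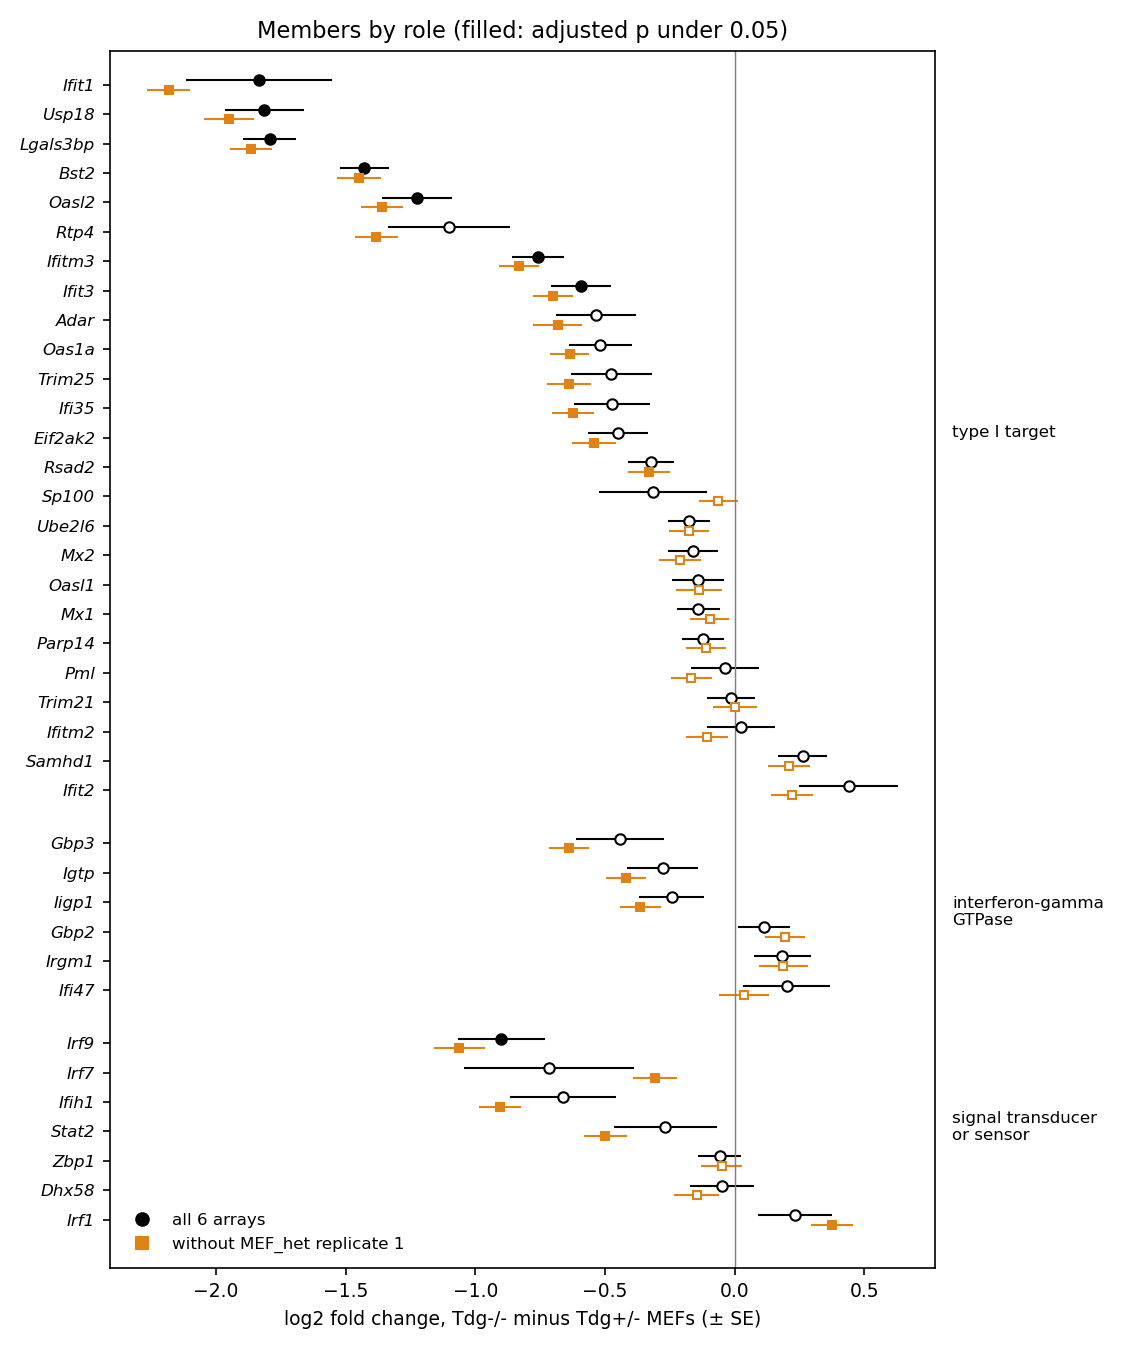
Log2 fold changes (Tdg-/- minus Tdg+/-, x axis, bars ± SE) of the 38 measured members, by role, with all 6 arrays (circles) and without MEF_het replicate 1 (squares); filled symbols have an adjusted p under 0.05. With all arrays the type I targets run from -1.84 to 0.44 and the 6 interferon-gamma GTPases from -0.44 to 0.20. Without MEF_het replicate 1 these ranges are -2.18 to 0.22 and -0.64 to 0.19.

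Among the type I targets, 7 of 25 fell and none rose (1.32% and 2.52% of all genes did), with a median log2 fold change of -0.45. Without MEF_het replicate 1, 14 fell (7.87% of all genes did), none rose (14.1% of all genes did) and the median was -0.54. The Ifit genes encode proteins that bind foreign RNA and block its translation. Ifit1 had 6.33, 6.12 and 6.25 in the Tdg-/- arrays and 7.38, 8.41 and 8.42 in the Tdg+/- arrays (log2, replicates 1 to 3). The groups did not overlap, and MEF_het replicate 1 lay between the Tdg-/- arrays and the other 2 Tdg+/- arrays. The fall of 3.57-fold had an adjusted p of 0.0207; it was 4.54-fold without that array, and the adjusted p was 0.0964 to 0.131 when MEF_het replicate 2 or a MEF_KO array was left out. Ifit3 had 6.62, 6.52 and 6.62 in Tdg-/- arrays and 6.97, 7.30 and 7.28 in Tdg+/- arrays, a 1.51-fold fall (adjusted p = 0.0434) that was 1.63-fold without MEF_het replicate 1. Its groups were also apart, but it did not pass when any array other than MEF_het replicate 1 was left out (adjusted p up to 0.230), nor with quantile normalization, a replicate block or all probe sets tested as separate rows. Ifit2, from the same gene cluster, ran the other way at 7.38, 7.48 and 7.59 in Tdg-/- and 6.61, 7.25 and 7.27 in Tdg+/- arrays, with a log2 fold change of 0.44 ± 0.19 (SE) that did not pass (adjusted p = 0.232); without MEF_het replicate 1 it was 0.22 (adjusted p = 0.0719).

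The ISG15 system attaches the ubiquitin-like protein ISG15 to other proteins. Usp18, which removes ISG15 and also dampens signalling at the type I receptor, stood at 6.30, 5.99 and 5.98 in Tdg-/- arrays and 7.63, 8.01 and 8.07 in Tdg+/- arrays. It fell 3.51-fold (log2 fold change -1.81 ± 0.15, SE; adjusted p = 0.00218), and 3.87-fold without MEF_het replicate 1. The highest adjusted p with an array left out was 0.0266. The probe set shared by Isg15 and Gm9706 read 6.95, 6.91 and 6.97 in Tdg-/- arrays and 7.77, 8.21 and 8.05 in Tdg+/- arrays. In the fit over all probe sets it was 2.10-fold lower (adjusted p = 0.0105), or 2.28-fold without MEF_het replicate 1, and did not pass once MEF_het replicate 2 or a MEF_KO array was left out (adjusted p up to 0.0896); which of these genes gave the signal cannot be told from it. The ISG15 conjugating enzyme gene Ube2l6 and the ligase gene Trim25 did not pass, with log2 fold changes of -0.18 and -0.48, although their groups did not overlap. Trim25 passed without MEF_het replicate 1, at -0.64 (adjusted p = 8.79e-05).

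Members that restrict viruses at membranes differed among themselves. Bst2, which encodes tetherin, a protein that holds budding virus at the cell surface, had 7.04, 7.10 and 7.22 in Tdg-/- arrays and 8.51, 8.49 and 8.65 in Tdg+/- arrays. MEF_het replicate 1 lay between the other Tdg+/- arrays, and the 2.69-fold fall (adjusted p = 0.000836) was 2.73-fold without that array. Ifitm3, which blocks virus entry, was bright on these arrays, at 10.81, 10.91 and 10.86 in Tdg-/- and 11.48, 11.74 and 11.64 in Tdg+/- cells, and fell 1.69-fold (adjusted p = 0.0119), or 1.78-fold without MEF_het replicate 1. It did not pass once MEF_het replicate 2 or a MEF_KO array was left out (adjusted p up to 0.0950). Its paralogue Ifitm2 had 10.81, 10.86 and 10.72 in Tdg-/- and 10.51, 10.84 and 10.96 in Tdg+/- arrays; these overlapped, and the log2 fold change of 0.02 turned to -0.11 without MEF_het replicate 1. Rtp4, an interferon-induced chaperone gene, read 6.87, 6.76 and 6.96 in Tdg-/- and 7.40, 8.28 and 8.21 in Tdg+/- arrays. Its 2.14-fold difference missed the threshold (adjusted p = 0.0563) and passed with the mean of its probe sets, with dim probe sets left out, and without MEF_het replicate 1, where it was 2.61-fold (adjusted p = 2.69e-08). Mx1 and Mx2, dynamin-like GTPases that trap viral particles, and Rsad2, which encodes viperin, had log2 fold changes of -0.14, -0.16 and -0.32, none past the threshold, and of these only Rsad2 passed without MEF_het replicate 1.

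Lgals3bp, a secreted glycoprotein gene, had the lowest adjusted p of all members (0.000435). It stood at 7.38, 7.34 and 7.21 in Tdg-/- arrays and 8.97, 9.20 and 9.15 in Tdg+/- arrays, a 3.47-fold fall that was 3.64-fold without MEF_het replicate 1. The groups were far apart against the spread within each. Oasl2, of the family of 2′-5′ oligoadenylate synthases that activate RNA decay in infected cells, had 5.34, 5.19 and 5.18 in Tdg-/- and 6.19, 6.62 and 6.57 in Tdg+/- arrays and fell 2.34-fold (adjusted p = 0.00609), or 2.57-fold without MEF_het replicate 1. It did not pass without MEF_KO replicate 2 or 3 (adjusted p up to 0.0583). Of its relatives, Oas1a was at -0.52 (adjusted p = 0.0725), with groups that did not overlap; it passed without MEF_het replicate 1 (-0.64; adjusted p = 3.21e-05), with quantile normalization and with dim probe sets left out. Oasl1 was at -0.14 (adjusted p = 0.365), with groups that overlapped. The double-stranded RNA kinase gene Eif2ak2 (-0.45) and the RNA editing gene Adar (-0.53) did not pass with all arrays and passed without MEF_het replicate 1, as did Ifi35 (-0.47), which also passed with quantile normalization. Samhd1, which breaks down nucleotides, ran the other way (0.26), and 2 of its 4 probe sets were below 0; it was the only 1 of 11 members with several probe sets whose probe sets differed in sign. Parp14 (-0.12), the nuclear body genes Pml (-0.04) and Sp100 (-0.31), and Trim21 (-0.01), which encodes a receptor for antibody-coated virus, passed in neither fit; the sign for Pml and Trim21 depended on the array left out.

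**Figure D3:**
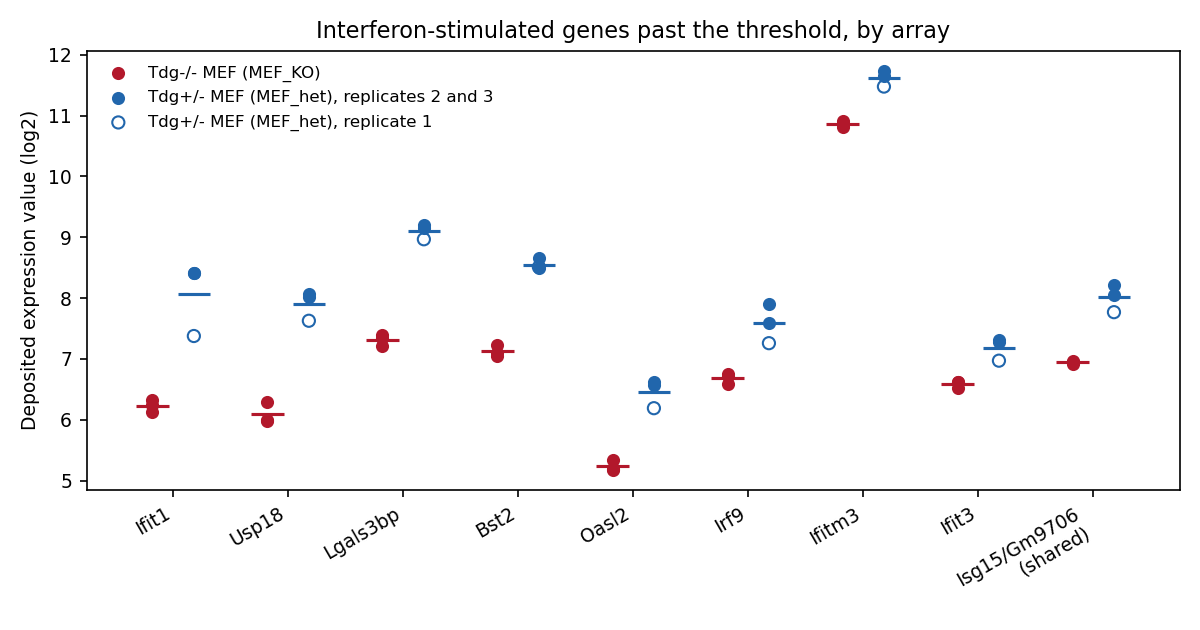
Deposited log2 value on each array for the 8 members that fell and for the probe set shared by Isg15 and Gm9706; points are arrays, lines are group means, and the open circle is MEF_het replicate 1. No Tdg-/- array reaches a Tdg+/- array in any column, and MEF_het replicate 1 is the lowest Tdg+/- array for 7 of the 8 members, Bst2 being the exception.

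None of the 6 interferon-gamma GTPases passed with all arrays, where 1.32% of all genes fell and 2.52% rose. Their adjusted p-values (limma) ran from 0.201 to 0.442 and their median log2 fold change was -0.06. At an unadjusted p under 0.05 limma gave 1 of them, Gbp3, as lower (7.32% of all genes were). The immunity-related GTPases act on the vacuoles of intracellular parasites, as do the guanylate-binding proteins. Gbp3 had 5.65, 5.74 and 5.75 in Tdg-/- arrays and 5.76, 6.31 and 6.39 in Tdg+/- arrays. It was the one GTPase whose Tdg-/- arrays all lay below, as they did for 16.8% of all genes. Gbp2, a neighbour of it, had 6.31, 6.30 and 6.22 in Tdg-/- and 6.32, 6.09 and 6.07 in Tdg+/- arrays, which overlapped. Irgm1 had 9.17, 9.42 and 9.13 in Tdg-/- and 9.06, 8.98 and 9.12 in Tdg+/- arrays. All its Tdg-/- arrays lay above, as they did for 22.6% of all genes, and its log2 fold change was 0.18 (limma, adjusted p = 0.312). Without MEF_het replicate 1, Gbp3 (-0.64), Igtp (-0.42) and Iigp1 (-0.36) fell (7.87% of all genes did), while Irgm1 (0.19), Gbp2 (0.19) and Ifi47 (0.04) did not pass. Whether the GTPases differ as a group from the type I targets was not tested.

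Of the 7 signal transducers and sensors, 1 fell (1.32% of all genes did) and 6 did not pass, with a median log2 fold change of -0.27. Without MEF_het replicate 1, 4 fell (7.87% of all genes did) and 1 rose (14.1% of all genes did), and the median was -0.31. Irf9, the DNA-binding subunit of the complex with Stat2, had 6.72, 6.75 and 6.58 in Tdg-/- arrays and 7.26, 7.58 and 7.90 in Tdg+/- arrays, groups that did not overlap. The fall was 1.86-fold (log2 fold change -0.90 ± 0.17, SE; adjusted p = 0.0385) and 2.09-fold without MEF_het replicate 1, but it did not pass with a replicate block, or once MEF_het replicate 2 or a MEF_KO array was left out (adjusted p up to 0.205). Its partner Stat2 read 6.92, 6.77 and 6.84 in Tdg-/- and 6.65, 7.41 and 7.27 in Tdg+/- arrays; MEF_het replicate 1 was the lowest of all 6 arrays, so the groups overlapped (adjusted p = 0.377). Without that array the log2 fold change of Stat2 was -0.50 (adjusted p = 0.000551). A second, dimmer Stat2 probe set was at -0.52 ± 0.11 (SE) with all 6 arrays and did not pass (limma over all probe sets, adjusted p = 0.0674). Ifih1, which encodes the long double-stranded RNA sensor MDA5, had 7.27, 7.19 and 7.29 in Tdg-/- and 7.43, 8.08 and 8.23 in Tdg+/- arrays. Its log2 fold change of -0.66 did not pass (adjusted p = 0.136) and was -0.90 without MEF_het replicate 1 (adjusted p = 1.53e-06).

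Irf7, the amplifier of type I interferon production, is a member for which MEF_het replicate 1 was high: it had 6.28, 6.34 and 6.27 in Tdg-/- arrays and 7.83, 6.71 and 6.50 in Tdg+/- arrays. The log2 fold change was -0.72 ± 0.33 (SE; adjusted p = 0.247) with it and -0.31 without it (adjusted p = 0.0173). Irf1, an early factor of the interferon-gamma response, had 9.53, 9.40 and 9.45 in Tdg-/- and 9.52, 9.17 and 9.00 in Tdg+/- arrays, and MEF_het replicate 1 lay within the range of the Tdg-/- arrays. Irf1 did not pass with all arrays (log2 fold change 0.23; adjusted p = 0.322) and was the only member to rise without MEF_het replicate 1 (0.38; adjusted p = 0.00448). The sensor genes Dhx58 (6.95, 6.95 and 6.75 in Tdg-/- and 6.73, 7.10 and 6.95 in Tdg+/- arrays) and Zbp1 (6.50, 6.40 and 6.42 in Tdg-/- and 6.51, 6.44 and 6.55 in Tdg+/- arrays) overlapped between genotypes and passed in neither fit. With the mean of each gene's probe sets their log2 fold changes were -0.28 for Dhx58 and -0.36 for Zbp1, against -0.05 and -0.06 from the brightest probe set, and did not pass.

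The array that stood apart differed from its group in these genes too. It was the lowest of the 3 Tdg+/- arrays for 25 of 38 members, against 50.7% of all genes, and the highest for 5, against 38.9%. Its difference from the mean of MEF_het replicates 2 and 3 had a median of -0.31 over the members and -0.07 over all genes (log2). For genes below the median level of 7.70, that array was above the other 2 by a median of 0.19 over 6197 genes, but the 26 members in this range had a median of -0.31. Above that level the medians were -0.24 over 6197 genes and -0.28 over 12 members. The median member deviated from its own mean over the 6 arrays by -0.15, -0.19 and -0.13 in MEF_KO replicates 1, 2 and 3, and by 0.04, 0.22 and 0.24 in MEF_het replicates 1, 2 and 3. Over all members, the Tdg+/- array that stood apart thus came between the Tdg-/- arrays and the other Tdg+/- arrays. Over the 6 GTPases it did not: their median deviation was -0.07, -0.07 and -0.02 in MEF_KO replicates 1, 2 and 3, and -0.13, 0.20 and 0.12 in MEF_het replicates 1, 2 and 3. The 14 members that passed only without it had adjusted p-values of 0.0563 to 0.377 with all arrays, and none of them passed with any other array left out.

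**Figure D4:**
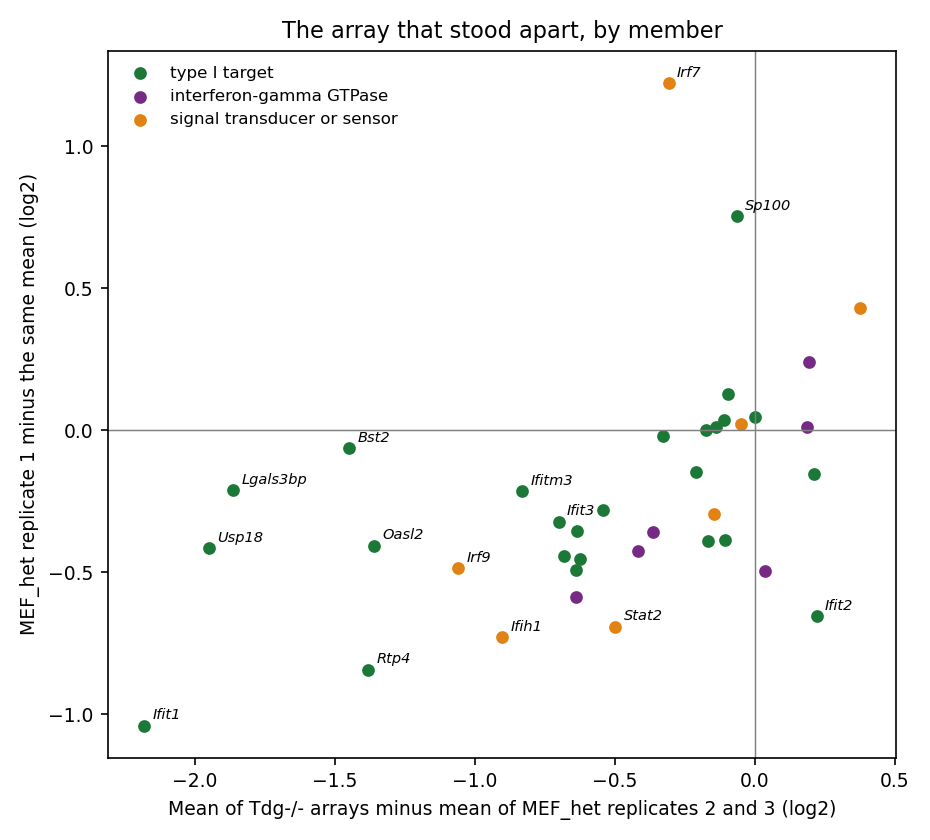
For each of the 38 members, the mean of the Tdg-/- arrays (x axis) and MEF_het replicate 1 (y axis), both as log2 differences from the mean of MEF_het replicates 2 and 3, which the axes share. Ifit1, Rtp4 and Ifih1 are low on both axes, while Irf7 is 1.22 above that mean in MEF_het replicate 1 only.

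Members that lie beside each other on a chromosome did not always move together. The pairs in this paragraph are all pairs of measured members with at most 4 coding genes between them in the RefSeq order, and a difference between them within an array does not depend on that array's overall scaling. On chromosome 19, Ifit1 minus Ifit2 was -1.05, -1.35 and -1.35 in Tdg-/- arrays and 0.77, 1.16 and 1.15 in Tdg+/- arrays. Ifit2 minus Ifit3 was 0.76, 0.95 and 0.97 in Tdg-/- arrays and -0.36, -0.05 and -0.01 in Tdg+/- arrays. These differences were apart between the genotypes on every array, so that Ifit1 and Ifit3 changed relative to Ifit2. On chromosome 7, Ifitm2 minus Ifitm3 was 0.00, -0.05 and -0.14 in Tdg-/- arrays and -0.96, -0.89 and -0.69 in Tdg+/- arrays. Oasl1 minus Oasl2, on chromosome 5, averaged 1.40 ± 0.12 in Tdg-/- and 0.31 ± 0.26 in Tdg+/- arrays (SD, n = 3 each). Gbp2 minus Gbp3, on chromosome 3, was 0.66, 0.56 and 0.47 in Tdg-/- arrays and 0.56, -0.22 and -0.32 in Tdg+/- arrays, which overlapped through MEF_het replicate 1. With 3 arrays against 3, no exact permutation test of 1 pair can give a two-sided p under 0.10, and none was run. How many neighbouring pairs over all genes are apart was not counted. Among single genes, the Tdg-/- arrays all lay below for 16.8% and all above for 22.6%. Every pair that was apart held a member that fell, so its difference is not separate from that fall.

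**Figure D5:**
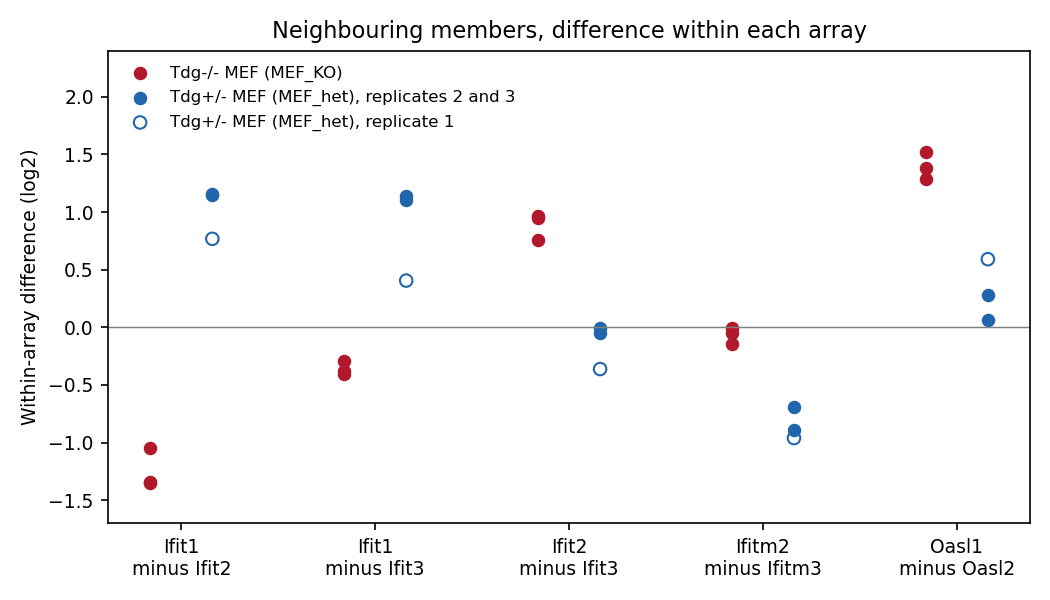
Within-array log2 difference between neighbouring members (y axis) for the pairs whose genotypes did not overlap; each point is an array, and the open circle is MEF_het replicate 1. Ifit1 minus Ifit3 has an open circle at 0.41, below the other Tdg+/- arrays at 1.11 and 1.14 and above the Tdg-/- arrays at -0.29, -0.40 and -0.38.

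Of 85 other interferon pathway genes listed, 63 were measured; 4 fell (1.32% of all genes did), none rose (2.52%) and 59 did not pass by limma. At an unadjusted p under 0.05, 10 were lower (7.32% of all genes) and 5 higher (15.1%). The 3 that fell among 31 further targets were Cxcl10, Ccl5 and Irgm2. Cxcl10, a chemokine gene, had 7.04, 7.11 and 7.01 in Tdg-/- and 7.98, 8.62 and 8.95 in Tdg+/- arrays (2.74-fold; adjusted p = 0.0239), and the chemokine gene Ccl5 had 7.76, 7.60 and 7.58 in Tdg-/- and 8.26, 8.65 and 8.79 in Tdg+/- arrays (1.89-fold; adjusted p = 0.0260). Irgm2, an immunity-related GTPase gene outside the 40, had 5.93, 5.94 and 6.01 in Tdg-/- and 6.77, 6.43 and 6.53 in Tdg+/- arrays and fell 1.53-fold (adjusted p = 0.0353), with MEF_het replicate 1 the highest array. Upstream, Sting1, the adaptor of cytosolic DNA sensing, fell 1.67-fold, at 8.36, 8.09 and 8.06 in Tdg-/- arrays against 9.15, 8.75 and 8.83 in Tdg+/- arrays (adjusted p = 0.0407). Each of these 4 lost its call once MEF_het replicate 2 or a MEF_KO array was left out (adjusted p up to 0.218), Ccl5, Irgm2 and Sting1 also without MEF_het replicate 3, Ccl5 and Irgm2 with a replicate block and Sting1 with quantile normalization. Without MEF_het replicate 1, 13 of the 63 fell (7.87% of all genes did) and 3 rose (Il10rb, Irf3 and Isg20; 14.1% of all genes did). Among the 13 were Cxcl10 (3.30-fold), Ccl5 (2.10-fold), Irgm2 (1.43-fold) and Sting1 (1.54-fold). The median log2 fold change of the 63 was -0.08, against -0.14 with all arrays.

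Ligands, receptors and kinases gave few calls. None of 7 measured ligand genes and 5 receptor genes passed by limma, where 1.32% of all genes fell and 2.52% rose. At an unadjusted p under 0.05, Ifna4 was lower (7.32% of all genes were) and Il10rb higher (15.1% were). These 2 passed without MEF_het replicate 1, where 7.87% of all genes fell and 14.1% rose. Ifnb1 had 6.08, 6.04 and 5.87 in Tdg-/- arrays and 6.80, 6.12 and 6.09 in Tdg+/- arrays, with MEF_het replicate 1 the highest. All 7 ligand means lay in both genotypes under 7.25, the 95th percentile of the olfactory receptor probe sets. The receptor genes Ifnar1 (8.18, 8.04 and 8.29 in Tdg-/-, 7.44, 8.04 and 7.98 in Tdg+/- arrays), Ifnar2 (0.16), Ifngr1 (0.05) and Ifngr2 (0.31) did not pass, the last 3 given as log2 fold changes; those of Ifnar2 and Ifngr1 changed sign with the array left out. Jak1 read 9.91, 9.98 and 10.03 in Tdg-/- and 10.18, 10.42 and 10.71 in Tdg+/- arrays, with groups that did not overlap. Its log2 fold change of -0.46 did not pass (adjusted p = 0.135), but Jak1 did pass without MEF_het replicate 1 (-0.59) and with quantile normalization. Tyk2 (0.05) and the inhibitor Socs1 (-0.26) passed in neither fit. A fold change that misses the threshold does not show that 2 genotypes are alike.

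Signal level limits some of these folds. The values came without detection calls, and probe sets differ in brightness for reasons other than RNA amount. Of the 8 members that fell, Ifit1, Usp18 and Oasl2 had Tdg-/- means under 6.29, the median of the olfactory receptor probe sets, and 6 had Tdg-/- means under their 95th percentile. Their falls may be understated or overstated, and neither was tested. The olfactory receptor probe sets were themselves lower in the Tdg-/- cells, with a median of 6.16 against 6.41 in Tdg+/- cells. Of all 38 members, 15 lay under the 95th percentile in both genotypes, Oasl2 and Ifit3 among them, so that expression of these 15 was not established.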

How the data were processed

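RNA levels of 6 MEF samples were measured on Affymetrix arrays. The authors deposited log2 expression values per probe set; MAS5, RMA, affy and limma are the tools listed in the submitters' processing notes, and no source used here says which of them made the values. Probe sets were named from the platform's annotation, with symbols brought up to RefSeq (GRCm38.p6). Of 22690 probe sets, 20393 had 1 gene symbol, of which 20364 matched RefSeq, 691 had several and 1606 none. Each gene was read from its probe set with the highest mean; probe sets of several genes were left out, except those of Tdg and Isg15, read from a fit over all probe sets. The genotypes were compared with limma 3.58.1 (lmFit, eBayes) in R 4.3.3, with Benjamini-Hochberg adjustment over all genes and a threshold of 0.05. The procedure was tested on simulated data. These had the same spread for every gene and no array that stood apart, so that test does not cover an array like MEF_het replicate 1. The number of arrays, 3 per group, limits the precision. The members and the gene lists were chosen with earlier results of these data known, so no count over them is independent support. Named were all members, the pathway genes past the threshold and a fixed few others. Alternatives were quantile normalization, dim probe sets left out, other probe set rules, leaving out each array, a 2-fold limit, a replicate block and an intensity trend. The pairs of neighbouring members and the split by level were chosen after the data were seen. The proteins of the members were not printed.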

Additional observations from a re-analysis of the deposited data

How the results depend on the processing

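The median log2 fold change of the members stayed below 0 in every alternative, from -0.24 (without MEF_het replicate 2, and with quantile normalization) to -0.46 with dim probe sets left out, where the median over all genes was 0.13 and 5 of the 18 members still tested fell (Rtp4, Ifitm3, Oas1a, Bst2 and Lgals3bp). The number of members that fell was 9 with quantile normalization and with the mean of a gene's probe sets, 8 with an intensity trend, 7 with all probe sets tested, 6 with a replicate block, 5 with a 2-fold limit and 3 to 21 with 1 array left out. The share of all genes that fell ran between 0.702% with a replicate block and 2.25% with dim probe sets left out, over the alternatives that keep all 6 arrays, the 2-fold limit aside. None rose in any of these except 1 without MEF_het replicate 1. Type I targets that fell numbered 3 to 14 with 1 array left out, interferon-gamma GTPases 0 to 3, transducers and sensors 0 to 4, and other pathway genes 0 to 13. Of all genes, 0.355% to 7.87% fell in these fits. For transducers and sensors the count was 0 with dim probe sets left out (Irf9 was then not tested), a replicate block or a 2-fold limit, and for other pathway genes it was 2 with a replicate block and 1 with a 2-fold limit. Over all genes 475 passed (312 higher, 163 lower), against 237 with a replicate block, 147 with a 2-fold limit and 95 to 2722 with 1 array left out; with quantile normalization the split was 335 higher and 268 lower. The shift of the Tdg probe set that lost its call was -2.23 without MEF_KO replicate 3, in a range of -2.52 to -2.10 over the arrays left out.

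Log2 fold changes that changed sign belonged to genes that passed in no fit, and the cause was not tested. Ifitm2 had -0.12 with quantile normalization and -0.11 to 0.12 with 1 array left out. Pml had -0.17 to 0.067 with 1 array left out. Trim21 had 0.038 with quantile normalization and -0.065 to 0.023 with 1 array left out. Dhx58 had 0.031 with quantile normalization and -0.15 to 0.039 with 1 array left out. Zbp1 had 0.043 with quantile normalization. Ifnar2 had -0.022 to 0.28 with 1 array left out. Ifngr1 had -0.11 with quantile normalization and -0.057 to 0.12 with 1 array left out. Tyk2 had -0.0086 with quantile normalization and -0.040 to 0.12 with 1 array left out.

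With the mean of a gene's probe sets, 4 members moved by over 1.5 times, none past the threshold: Zbp1 (-0.36), Dhx58 (-0.28), Trim21 (-0.15) and Samhd1 (0.0095).

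Over the named genes, 496 values under an alternative kept their direction and side of the threshold, 49 lost the call, 21 gained one and 19 changed sign. Same-numbered arrays of the genotypes deviated together for replicates 1 (correlation 0.33) and 3 (0.37) but not 2 (0.0076), so the numbers were not taken to pair the arrays; with the replicate block Ifit3 and Irf9 did not pass, and the other 6 members that fell did.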
